A study of Mus musculus with 8 samples.

Results

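The genes described here were 10 regulators of multiciliated cell fate and centriole amplification: Foxj1, Rfx2, Rfx3, Trp73, Myb, Foxn4, Mcidas, Ccno, Cdc20b and Tub. They were picked by name, as the array probes whose annotated symbol is on this list. All 10 were present, as 10 of 24306 named genes and as 18 of 43941 named probes. Each gene was read from its brightest probe, meaning the probe with the highest mean over the 8 arrays, and no filter on low values was applied, so that all 10 entered every test.

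Multiciliated cells of the conducting airway carry bundles of motile cilia that move mucus, and each cilium grows from its own basal body. When Notch signalling is low, airway progenitors turn on geminin family coactivators such as Mcidas, which act with E2F factors on Myb, Ccno, Trp73 and Foxj1. Many centrioles are then built at once around deuterosomes, with the help of Ccno, Cdc20b and Deup1, while Foxj1 and the RFX factors turn on the genes of the motile axoneme. The gas-exchanging alveolar epithelium is not a multiciliated tissue. The cells here were sorted from mouse lungs as alveolar epithelial cells, by a gate not given in the sources used here. Other epithelial cells among them are therefore not excluded.

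Gene expression was measured on 8 single-colour arrays from mouse lungs at E18.5, from which alveolar epithelial cells type II (AECII) and type I (AECI) had been sorted by FACS. The 4 groups, AECII experimental, AECII control, AECI experimental and AECI control, held 2 arrays each. Experimental embryos carried the allele given as Fgfr2bflox in the sample titles, a conditional allele of the epithelial isoform of the Fgf receptor Fgfr2, and tamoxifen was given to their mothers at E14.5 and once more at E15.5. Control embryos had an unnamed control genotype, came from other mothers and were prepared the same way, so that genotype and litter cannot be told apart. Which Cre driver, sort gate and number of embryos were used is not given in the sources used here, beyond the naming of Sftpc-expressing cells in the title. The replicates are called biological in the design text, without animals or litters being named, so that each p-value measures only how far these samples spread, which may be technical.

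Values are log2 signals, so every level and difference below is on the log2 scale. Tested differences compare groups within a probe or within the mean of a gene's probes, and list levels are means over several genes. Words such as high or dim set a level against the scale of all spots, which does not compare the expression of different genes. The comparisons reuse the same 8 arrays and are not independent of each other. The mean of 8 AT1 markers was 9.60 to 9.98 in AECII experimental and 10.33 to 10.54 in AECII control arrays, against 13.15 to 13.23 in AECI experimental and 13.55 to 13.67 in AECI control arrays, so it was higher in both AECI groups. Markers of AT2 cells were high everywhere, at 13.69 to 13.75 in AECII experimental and 13.70 to 13.74 in AECII control arrays, against 12.82 to 12.91 in AECI experimental and 12.64 to 12.76 in AECI control arrays. All 8 AT2 markers had differences of AECII from AECI above 0 in both genotypes. In limma, 0 of these 8 passed an adjusted p under 0.05 in experimental lungs and 3 in control lungs. Of all genes, 1.28% and 1.30% were called higher. Of the 8 AT1 markers, 7 were called lower in AECII in each genotype, against 1.27% and 1.53% of all genes. Xist was low and the Y-linked Eif2s3y high on 2 control arrays, AECII control replicate 2 (6.53 and 10.40) and AECI control replicate 1 (3.96 and 10.63), while the other arrays read 13.32 to 13.90 for Xist and 4.33 to 5.93 for Eif2s3y. Both experimental groups thus held only arrays of 1 sex pattern. Results are also given without these 2 arrays and, for the calls, with the Xist pattern as a covariate. Fgfr2, the targeted gene, read 12.24 and 12.33 in AECII experimental, 12.60 and 12.62 in AECII control, 11.07 and 11.38 in AECI experimental and 11.03 and 11.37 in AECI control arrays on its brighter probe. The genotypes did not differ past the threshold there, with a difference of experimental from control of -0.32 in AECII (limma adjusted p = 0.766) and 0.03 in AECI (limma adjusted p = 0.976). Whether that probe lies in the floxed part was not tested. In such sorted bulk samples, fewer cells of a type and less RNA per cell cannot be told apart.

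The promoters of 4 regulators are shown because, together with Foxj1, these were the members whose 4 AECII arrays all lay above the 4 AECI arrays. The sequences are from RefSeq on GRCm38.p6, from 250 bases before to 50 bases after the gene start, and 9 of the 10 members matched, all except Foxj1. Capitals mark 3 motifs searched on both strands with no overlap between them in these windows, namely GTTGCC, the core of the X-box that RFX factors bind, the forkhead motif TGTTTAC and the E2F motif GGCGGGA.
Ccno, chr13:112987552-112987851, plus strand: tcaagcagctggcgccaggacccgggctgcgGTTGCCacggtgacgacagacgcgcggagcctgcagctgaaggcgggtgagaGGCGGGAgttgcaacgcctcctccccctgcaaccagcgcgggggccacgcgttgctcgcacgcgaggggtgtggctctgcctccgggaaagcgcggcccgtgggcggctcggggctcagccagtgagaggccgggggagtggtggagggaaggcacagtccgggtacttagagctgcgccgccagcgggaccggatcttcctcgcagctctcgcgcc
Cdc20b, chr13:113035129-113035428, plus strand: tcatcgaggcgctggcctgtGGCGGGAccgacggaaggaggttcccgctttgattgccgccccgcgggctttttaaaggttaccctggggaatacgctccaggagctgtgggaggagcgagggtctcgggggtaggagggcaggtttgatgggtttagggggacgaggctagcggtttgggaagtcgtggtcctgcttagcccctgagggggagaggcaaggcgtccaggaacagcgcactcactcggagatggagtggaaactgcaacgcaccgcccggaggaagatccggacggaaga
Myb, chr10:21160935-21161234, minus strand: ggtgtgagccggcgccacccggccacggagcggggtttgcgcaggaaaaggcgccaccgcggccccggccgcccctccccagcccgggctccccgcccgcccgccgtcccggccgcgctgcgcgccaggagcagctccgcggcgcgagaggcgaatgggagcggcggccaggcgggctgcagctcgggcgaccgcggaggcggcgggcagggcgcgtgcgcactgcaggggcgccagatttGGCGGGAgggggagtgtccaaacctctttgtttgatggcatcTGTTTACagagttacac
Rfx3, chr19:28011117-28011416, minus strand: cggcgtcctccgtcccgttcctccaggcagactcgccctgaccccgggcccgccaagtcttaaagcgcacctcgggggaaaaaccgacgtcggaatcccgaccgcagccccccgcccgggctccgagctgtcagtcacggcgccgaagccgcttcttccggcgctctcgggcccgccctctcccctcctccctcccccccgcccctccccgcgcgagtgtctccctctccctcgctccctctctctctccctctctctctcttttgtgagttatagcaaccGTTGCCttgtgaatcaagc

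The GTTGCC letters stood in 5 of 9 member promoters (Ccno, Mcidas, Rfx2, Rfx3 and Trp73), against 14.1% of 27025 genes with a promoter sequence. The E2F letters stood in 6 of 9 (Ccno, Cdc20b, Myb, Rfx2, Trp73 and Tub), against 12.7% of genes, and the forkhead letters in 1 of 9 (Myb), against 4.05% of genes. These matches are a description of the letters and not of bound sites. Cdc20b also hosts the miR-449 microRNAs, which are abundant in multiciliated cells. The mature sequences of 2 of them are shown with their seed, bases 2 to 8, in capitals, because they lie within the gene whose probe is described below, and miR-34a and miR-34b share this seed. MicroRNAs themselves were not analysed here.
mmu-miR-449a-5p, chr13:113037549-113037570, plus strand: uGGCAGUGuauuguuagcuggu
mmu-miR-449c-5p, chr13:113036008-113036028, plus strand: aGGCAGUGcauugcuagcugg

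In both genotypes Foxj1 was higher in AECII than in AECI. In experimental lungs Ccno and Cdc20b also passed the test, whereas Myb, Rfx3, Rfx2 and Foxn4 were higher on both AECII arrays there without passing it. Mcidas, Trp73 and Tub had differences around or below 0 on their brightest probes. In experimental lungs 3 of 10 members were called higher in AECII at an adjusted p under 0.05 in limma and 0 lower, while 2.54% of all genes were called, 1.28% higher and 1.27% lower. In control lungs 1 of 10 was called higher and 0 lower, against 2.83% of all genes called, 1.30% higher and 1.53% lower. At an unadjusted p under 0.05 there were 6 members in experimental lungs (21.6% of genes) and 5 in control lungs (16.7% of genes). The members' median difference was 1.34 in experimental and 0.81 in control lungs, where the medians of all genes were 0.0072 and 0.0048.

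**Figure D1:**
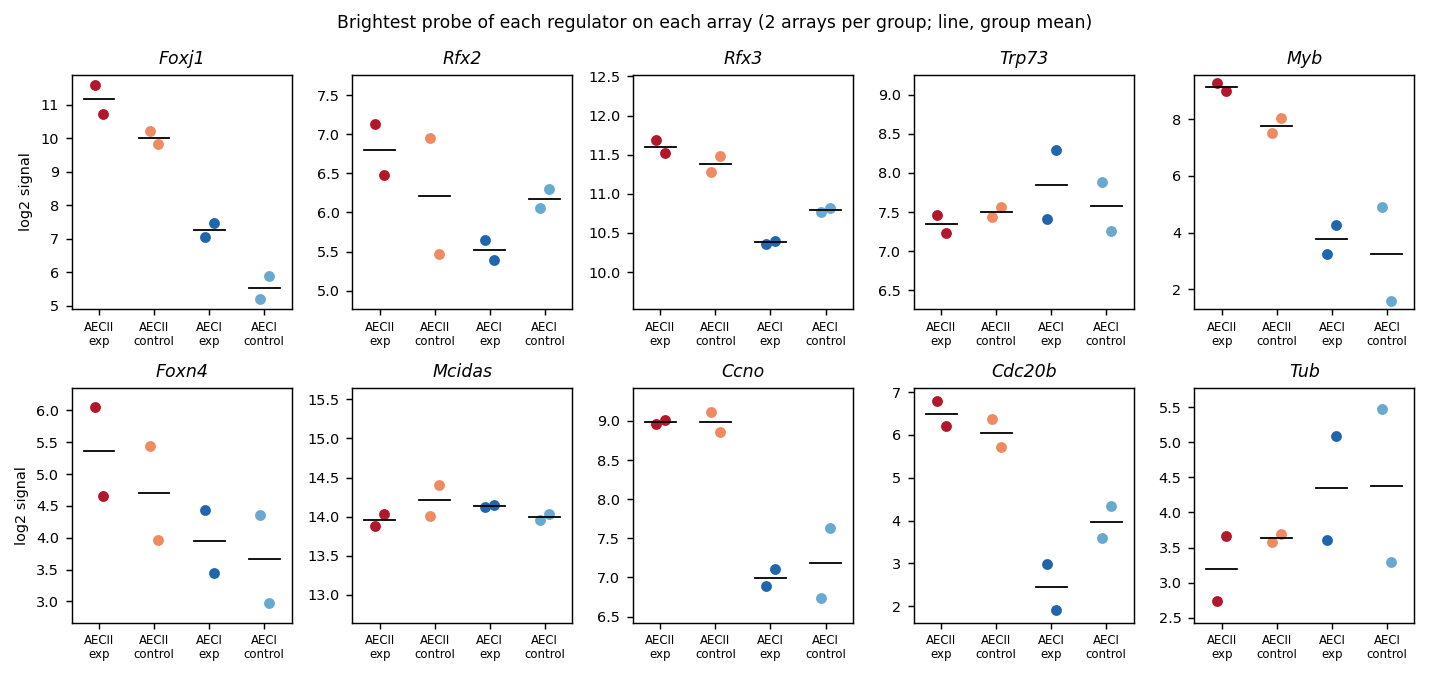
Log2 signal of the brightest probe of each regulator (vertical axis) in the 4 groups, with 1 point per array, 2 arrays per group and a line at each group mean. The AECII arrays lay above all AECI arrays for Foxj1, Rfx3, Myb, Ccno and Cdc20b, and the vertical scale differs between panels.

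Foxj1, the forkhead factor required for motile cilia, read 11.60 and 10.72 in AECII experimental and 10.21 and 9.83 in AECII control arrays, against 7.06 and 7.48 in AECI experimental and 5.19 and 5.88 in AECI control arrays. The 4 groups did not overlap, in the order AECII experimental, AECII control, AECI experimental and AECI control. AECII exceeded AECI by 3.89 ± 0.41 (SE, n = 2 arrays per group, 95% interval 2.89 to 4.89, limma adjusted p = 0.0140) in experimental lungs and by 4.48 ± 0.41 (95% interval 3.49 to 5.48, limma adjusted p = 0.00932) in control lungs. On the brightest probes Foxj1 was the only regulator called in both genotypes. The third Myb probe, described below, also passed in both when every named probe was tested. Without both arrays of low Xist the differences were 3.89 (limma adjusted p = 0.0829) and 4.33 (limma adjusted p = 0.218), and neither passed. Each control group then held 1 array, so that the spread came from the experimental groups alone and the lone control arrays were assumed to vary like them.

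Cdc20b, a relative of the mitotic activator Cdc20 that acts at deuterosomes, read 6.80 and 6.20 in AECII experimental and 6.37 and 5.73 in AECII control arrays, against 2.98 and 1.92 in AECI experimental and 3.59 and 4.34 in AECI control arrays. Every AECII array lay above every AECI array, and the AECI experimental arrays lay under the lower quartile of all spots (3.07). The difference was 4.05 ± 0.49 (SE, 95% interval 2.86 to 5.24, limma adjusted p = 0.0195) in experimental lungs and 2.09 ± 0.49 (95% interval 0.90 to 3.28, limma adjusted p = 0.0901) in control lungs, where it did not pass.

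Ccno, the cyclin O needed to make enough centrioles, read 8.96 and 9.01 in AECII experimental and 9.12 and 8.85 in AECII control arrays, against 6.89 and 7.10 in AECI experimental and 6.73 and 7.63 in AECI control arrays. The AECII arrays of both genotypes were close together and all above the AECI arrays. The difference was 1.99 ± 0.35 (SE, 95% interval 1.15 to 2.82, limma adjusted p = 0.0457) in experimental lungs and 1.80 ± 0.35 (95% interval 0.97 to 2.64, limma adjusted p = 0.0538) in control lungs, on either side of the threshold. When every named probe was tested, the only Ccno probe did not pass in experimental lungs either (limma adjusted p = 0.0510). The calls of Foxj1, Cdc20b and Ccno in experimental lungs each ended when any 1 of the 4 experimental arrays was left out, those of Cdc20b (limma adjusted p = 0.0507) and Ccno (limma adjusted p = 0.102) also without either AECII control array, and the call of Foxj1 in control lungs without AECII control replicate 1 (limma adjusted p = 0.0939) or 2 (limma adjusted p = 0.0924). With the experimental arrays left out in the order AECII replicate 1, AECII replicate 2, AECI replicate 1 and AECI replicate 2, the limma adjusted p was 0.114, 0.0825, 0.0699 and 0.0618 for Foxj1, 0.158, 0.122, 0.0607 and 0.0721 for Cdc20b, and 0.239, 0.197, 0.123 and 0.122 for Ccno. Without both arrays of low Xist the differences of Cdc20b and Ccno in experimental lungs were as before, and neither was called. The spread of that fit came from the experimental groups alone, so it does not test the Xist pattern there.

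Myb, a transcription factor of cycling progenitors that is also transiently expressed early in multiciliated differentiation, read 9.27 and 8.98 in AECII experimental and 7.50 and 8.05 in AECII control arrays, against 3.25 and 4.28 in AECI experimental and 4.91 and 1.60 in AECI control arrays. All AECII arrays were above all AECI arrays, and the AECI control arrays were far apart. The difference was 5.36 ± 1.02 (SE, 95% interval 2.89 to 7.82, limma adjusted p = 0.0539) in experimental and 4.51 ± 1.02 (95% interval 2.05 to 6.98, limma adjusted p = 0.0814) in control lungs, and neither passed the test. With the Xist pattern as a covariate the difference in experimental lungs passed (limma adjusted p = 0.0488). The control difference of Myb was 2.86 (limma adjusted p = 0.0801) without AECI control replicate 2, 6.17 (limma adjusted p = 0.0394) without AECI control replicate 1 and 2.81 (limma adjusted p = 0.0478) on the mean of its probes.

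Rfx3, an RFX factor of ciliary genes, read 11.68 and 11.52 in AECII experimental and 11.28 and 11.48 in AECII control arrays, against 10.37 and 10.40 in AECI experimental and 10.77 and 10.82 in AECI control arrays. The populations did not overlap, and the difference was 1.22 ± 0.22 (SE, 95% interval 0.68 to 1.77, limma adjusted p = 0.0519) in experimental and 0.58 ± 0.22 (95% interval 0.04 to 1.13, limma adjusted p = 0.269) in control lungs. Neither passed the test. Its relative Rfx2 read 7.13 and 6.48 in AECII experimental and 6.95 and 5.47 in AECII control arrays, against 5.65 and 5.40 in AECI experimental and 6.05 and 6.30 in AECI control arrays. The Rfx2 groups were apart in experimental lungs, with a difference of 1.28 (limma adjusted p = 0.222), and overlapped in control lungs, with 0.03 (limma adjusted p = 0.988).

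Foxn4, a forkhead factor with a role in multiciliated cells known from frog epidermis, read 6.05 and 4.66 in AECII experimental and 5.45 and 3.96 in AECII control arrays, against 4.44 and 3.45 in AECI experimental and 4.36 and 2.97 in AECI control arrays. Replicate 1 was above replicate 2 in each of the 4 groups, and the differences of 1.41 (limma adjusted p = 0.355) in experimental and 1.04 (limma adjusted p = 0.597) in control lungs did not pass. Tub, the tubby protein that helps to carry receptors into cilia, read 2.73 and 3.66 in AECII experimental and 3.58 and 3.69 in AECII control arrays, against 3.61 and 5.09 in AECI experimental and 5.47 and 3.29 in AECI control arrays. Its groups overlapped, most of its values lay between the lower quartile (3.07) and the median (5.18) of all spots, and the differences were -1.16 (limma adjusted p = 0.467) in experimental and -0.75 (limma adjusted p = 0.741) in control lungs.

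Over the 4 AECII and 4 AECI arrays without regard to genotype, 5 members (Foxj1, Rfx3, Myb, Ccno and Cdc20b) were higher on every AECII array, as were 9.01% of all genes. No member was lower on every AECII array, against 6.85% of genes. Within experimental lungs the arrays did not overlap for 7 members that were higher in AECII (28.2% of genes) and for 1, Mcidas, that was lower (26.7% of genes). Within control lungs they did not overlap for 5 that were higher (23.5% of genes) and for 0 that were lower (22.1% of genes). With 2 arrays a group such a separation was thus common among all genes.

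**Figure D2:**
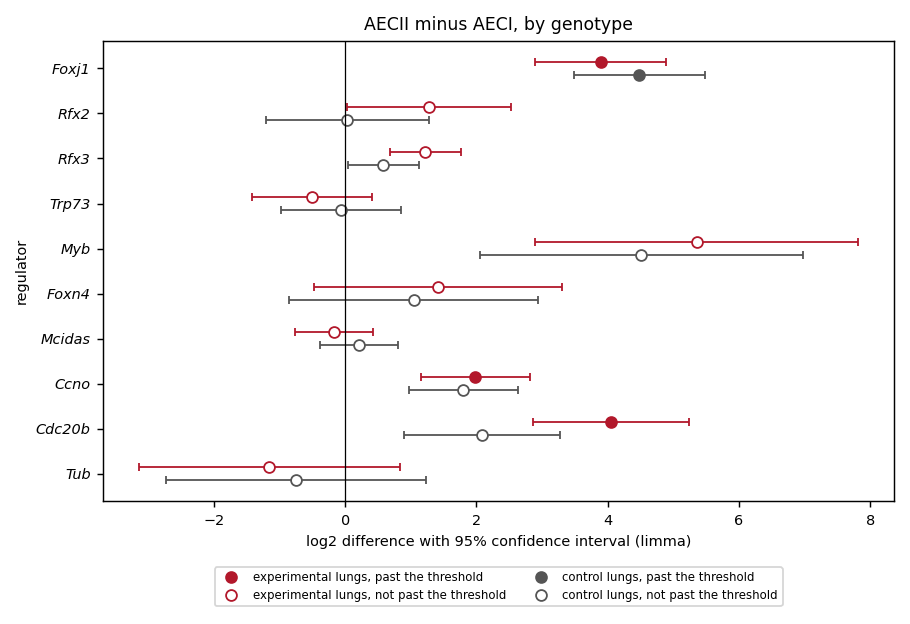
Log2 difference of AECII minus AECI with its 95% confidence interval (horizontal axis) for each regulator (vertical axis), with experimental lungs above control lungs and filled points for calls in limma. Foxj1 stood at 3.89 and 4.48, and Ccno (1.99) and Cdc20b (4.05) were called in experimental lungs only, while the interval of Myb was wide.

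Several probes were present for 5 regulators, and the probes of 1 gene did not always read alike. For Myb all 3 probes gave the same direction. The second read 7.10 and 6.70 in AECII experimental and 5.52 and 5.49 in AECII control arrays, against 3.07 and 2.27 in AECI experimental and 4.42 and 3.10 in AECI control arrays. The third read 7.18 and 6.92 in AECII experimental and 4.82 and 5.10 in AECII control arrays, against 3.19 and 3.16 in AECI experimental and 3.05 and 2.54 in AECI control arrays. Both dimmer probes passed the test of all 43941 named probes in experimental lungs, at 4.22 ± 0.50 (SE, limma adjusted p = 0.0199) and 3.87 ± 0.29 (SE, limma adjusted p = 0.00933). In control lungs the third passed, at 2.17 ± 0.29 (SE, limma adjusted p = 0.0241), and the second did not, at 1.75 (limma adjusted p = 0.153).

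For Rfx3 the second probe read 8.88 and 9.04 in AECII experimental and 8.76 and 8.62 in AECII control arrays, against 6.96 and 7.41 in AECI experimental and 7.70 and 7.95 in AECI control arrays. It followed the pattern of the brightest probe and passed in experimental lungs, at 1.78 ± 0.28 (SE, limma adjusted p = 0.0366), but not in control lungs, at 0.87 (limma adjusted p = 0.193). The third, dimmer still, differed by 1.01 (limma adjusted p = 0.353) and 0.91 (limma adjusted p = 0.470) and did not pass.

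For Trp73, the p53 family factor that acts upstream of Foxj1, the probes disagreed. The brightest read 7.47 and 7.23 in AECII experimental and 7.44 and 7.57 in AECII control arrays, against 7.41 and 8.29 in AECI experimental and 7.88 and 7.26 in AECI control arrays, with overlapping groups. The second read 6.60 and 6.60 in AECII experimental and 4.89 and 3.92 in AECII control arrays, against 2.96 and 4.75 in AECI experimental and 3.76 and 2.82 in AECI control arrays. On this probe the AECII experimental arrays stood above all 6 others. The third read 5.62 and 5.17 in AECII experimental and 4.70 and 3.61 in AECII control arrays, against 4.22 and 2.27 in AECI experimental and 3.97 and 5.05 in AECI control arrays, with AECII experimental again on top. In experimental lungs the difference of AECII from AECI was -0.50 (limma adjusted p = 0.534), 2.74 (limma adjusted p = 0.0971) and 2.15 (limma adjusted p = 0.189) on the brightest, the second and the third probe, and none passed. In control lungs it was -0.07 (limma adjusted p = 0.963), 1.11 (limma adjusted p = 0.497) and -0.36 (limma adjusted p = 0.887) on the same probes.

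For Mcidas the brightest probe read between 13.89 and 14.41 on all 8 arrays, with group means of 13.96 ± 0.10 (SD, n = 2) in AECII experimental, 14.21 ± 0.28 in AECII control, 14.14 ± 0.02 in AECI experimental and 14.00 ± 0.06 in AECI control arrays. The level was thus nearly the same in every group, and AECII differed from AECI by -0.18 (limma adjusted p = 0.723) in experimental and 0.21 (limma adjusted p = 0.762) in control lungs. The second probe read 6.37 and 6.51 in AECII experimental and 6.89 and 6.89 in AECII control arrays, against 7.04 and 6.77 in AECI experimental and 7.13 and 7.56 in AECI control arrays. On that probe AECII arrays were the lower ones, by -0.47 (limma adjusted p = 0.408) in experimental and -0.46 (limma adjusted p = 0.493) in control lungs, and neither passed. For Rfx2 the second probe differed by 0.11 (limma adjusted p = 0.956) and 0.63 (limma adjusted p = 0.765). Which probe of a gene reports its transcript cannot be read from these values.

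**Figure D3:**
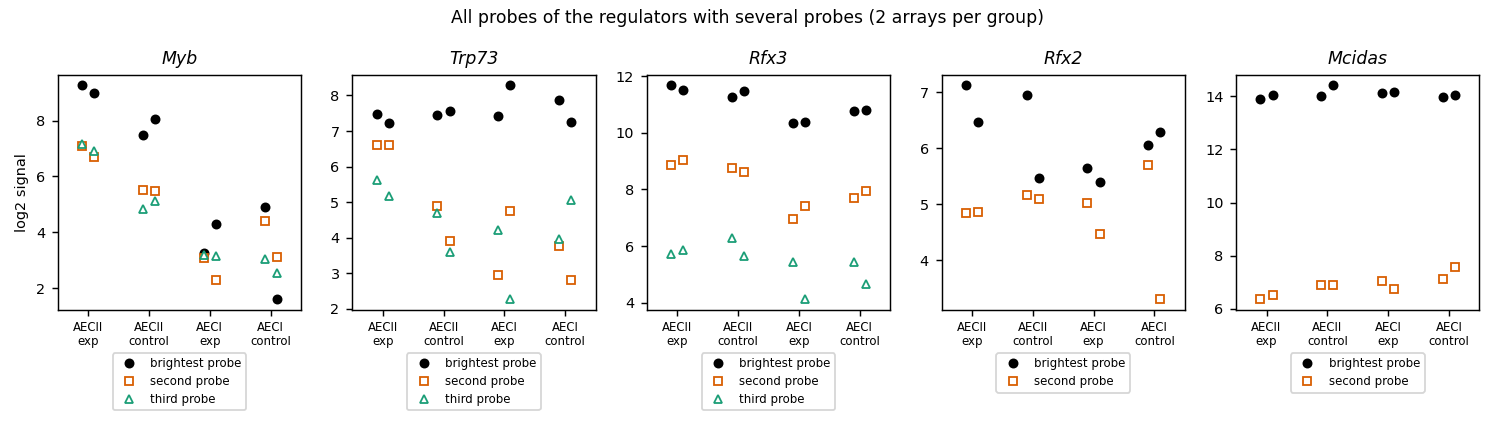
Log2 signal (vertical axis) of every probe of the 5 regulators with several probes, in the 4 groups with 2 arrays each, with filled circles for the brightest probe, squares for the second and triangles for the third. The 3 Myb probes followed the same order of populations, while the brightest Trp73 probe was flat and its dimmer probes were highest in AECII experimental arrays.

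The comparison of experimental with control lungs asked whether these regulators differ with the genotype within each sorted population. In AECII, Foxj1 and all 3 Myb probes were higher on both experimental arrays, and in AECI Foxj1 was higher and Cdc20b lower, but no member passed the test in either population. In AECII limma called 0 of 10 members and 0 of 24306 genes (0%), with 1 member and 8.24% of genes at an unadjusted p under 0.05. In AECI it called 0 members and 0.00411% of genes (1 gene), with 2 members and 12.4% of genes at an unadjusted p under 0.05. Without both arrays of low Xist no member was called either.

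In AECII the experimental arrays of Foxj1 exceeded the control arrays by 1.14 ± 0.41 (SE, 95% interval 0.15 to 2.14, limma adjusted p = 0.571), and by 0.70 without AECII experimental replicate 1. Those of Myb exceeded them by 1.35 ± 1.02 (SE, 95% interval -1.11 to 3.82, limma adjusted p = 0.761) on the brightest probe. On the second and the third Myb probe, tested among all named probes, the difference was 1.39 ± 0.50 (SE, limma adjusted p = 0.603) and 2.08 ± 0.29 (SE, limma adjusted p = 0.526). None of these passed, although the 2 genotypes did not overlap on any of the 3 probes. Ccno was level, at 8.98 ± 0.04 in AECII experimental and 8.98 ± 0.19 in AECII control arrays (SD, n = 2 each), a difference of -0.00062 with a 95% interval of -0.84 to 0.84. The second and the third probe of Trp73 differed by 2.19 ± 0.67 (SE, limma adjusted p = 0.582) and 1.25 ± 0.74 (SE, limma adjusted p = 0.727), and its brightest by -0.15. Cdc20b (0.45), Rfx2 (0.59), Rfx3 (0.23), Foxn4 (0.65), Mcidas (-0.25) and Tub (-0.44) had adjusted p values of 0.799 to 0.926 in limma. Experimental arrays lay above control arrays for 3 members (Foxj1, Myb and Rfx3), against 27.3% of genes, and below for 0, against 19.8% of genes, so the members' share was near that of all genes.

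In AECI the experimental arrays of Foxj1 exceeded the control arrays by 1.73 ± 0.41 (SE, 95% interval 0.74 to 2.73, limma adjusted p = 0.260). Cdc20b was lower on both experimental arrays, with a difference of -1.52 ± 0.49 (SE, 95% interval -2.70 to -0.33, limma adjusted p = 0.323). Neither passed the test, and the Cdc20b difference was -0.99 without AECI experimental replicate 2. Rfx2 (-0.65, limma adjusted p = 0.644) and Rfx3 (-0.42, limma adjusted p = 0.505) were also lower on both experimental arrays, and Mcidas (0.14, limma adjusted p = 0.852) was higher on both on its brightest probe. On its second probe Mcidas was lower on both, by -0.44 (limma adjusted p = 0.553). The brightest Myb probe differed by 0.51 (limma adjusted p = 0.873), the second by -1.08 (limma adjusted p = 0.437) and the third by 0.39 (limma adjusted p = 0.631), without a common direction. The second and the third probe of Trp73 differed by 0.57 (limma adjusted p = 0.774) and -1.26 (limma adjusted p = 0.536), and neither passed. Ccno (-0.18), Trp73 (0.28 on its brightest probe), Foxn4 (0.28) and Tub (-0.03) had overlapping groups. The arrays did not overlap for 2 members that were higher, against 21.2% of genes, and for 3 that were lower, against 18.6% of genes.

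The difference between the genotype effects, AECII minus AECI, was tested as an interaction, and limma called 0 of 10 members and 0 of all genes (0%), with 1 member and 8.62% of genes at an unadjusted p under 0.05. On the brightest probes that of Cdc20b was 1.96 ± 0.69 (SE, 95% interval 0.28 to 3.64, limma adjusted p = 0.544). For Foxj1 it was -0.59 ± 0.58 (SE, 95% interval -2.00 to 0.82, limma adjusted p = 0.801), an interval that holds 0, and the value was -0.15 without AECII experimental replicate 2 and -1.03 without AECII experimental replicate 1. Among all named probes, the second and the third Myb probe gave 2.47 ± 0.71 (SE, limma adjusted p = 0.574) and 1.70 ± 0.41 (SE, limma adjusted p = 0.574), and the second and the third Trp73 probe 1.63 (limma adjusted p = 0.695) and 2.51 (limma adjusted p = 0.617). None of these passed.

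**Figure D4:**
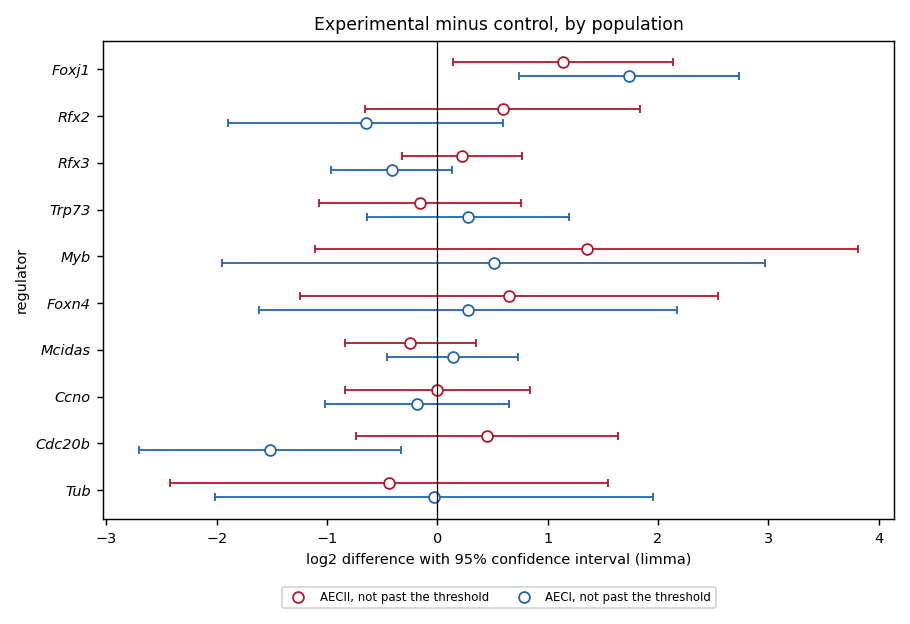
Log2 difference of experimental minus control lungs with its 95% confidence interval (horizontal axis) for each regulator (vertical axis), with AECII above AECI and open points for members not called in limma. No member was called, and the intervals that left out 0 were those of Foxj1 in AECII and AECI and of Cdc20b in AECI.

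Other genes of the multiciliated programme were read from 3 lists. The median difference of AECII from AECI over 25 axoneme genes was 3.25 in experimental and 1.87 in control lungs. Over all genes it was 0.0072 and 0.0048. Of the axoneme genes, 14 were called higher in AECII in experimental and 8 in control lungs, against 1.28% and 1.30% of all genes. None was called lower. Since no gene of the whole table was called without both arrays of low Xist, these counts were then 0. The highest-ranked by p were Lrrc23 (4.05 ± 0.30, SE, limma adjusted p = 0.00675), Rsph4a (4.01 ± 0.31, limma adjusted p = 0.00724) and Cfap52 (4.35 ± 0.36, limma adjusted p = 0.00772), which encode radial spoke and other axoneme proteins, and the central pair gene Spag6l (3.25 ± 0.30, limma adjusted p = 0.0107), all in experimental lungs. In control lungs Lrrc23 (4.40, limma adjusted p = 0.00578), Rsph4a (2.96, limma adjusted p = 0.0131), Spag6l (2.81, limma adjusted p = 0.0131) and Cfap43 (4.08, limma adjusted p = 0.0131) led the list. Between genotypes 0 of 25 passed in AECII, with 23 above 0 and a median of 1.28, and 0 passed in AECI, with 17 above 0 and a median of 0.47. The medians of all genes were 0.067 in AECII and 0.036 in AECI. Spag6l differed by 1.96 (limma adjusted p = 0.529) in AECII and by 1.52 (limma adjusted p = 0.232) in AECI, whereas Cfap52 differed by 1.42 (limma adjusted p = 0.529) in AECII and by -2.05 (limma adjusted p = 0.217) in AECI.

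Of 19 genes of centriole amplification, 1 was called higher in AECII in experimental lungs, the deuterosome gene Deup1, and 0 in control lungs. Of all genes 1.28% and 1.30% were called higher. Deup1 read 9.78 and 8.30 in AECII experimental and 7.80 and 7.79 in AECII control arrays, against 3.35 and 5.45 in AECI experimental and 6.16 and 5.06 in AECI control arrays. Its difference was 4.64 ± 0.82 (SE, limma adjusted p = 0.0473) in experimental and 2.18 ± 0.82 (SE, limma adjusted p = 0.252) in control lungs, a pattern of calls like that of Cdc20b. The list's median was 0.82 in experimental and 0.41 in control lungs. Ccdc78, another deuterosome gene, differed by 2.44 (limma adjusted p = 0.0952) and 2.50 (limma adjusted p = 0.110), and Ccp110, which caps centrioles, by 1.41 (limma adjusted p = 0.0967) and 1.37 (limma adjusted p = 0.129). Cdc20, the mitotic relative of Cdc20b, differed by -0.32 (limma adjusted p = 0.472) and 0.62 (limma adjusted p = 0.251), and none of these passed. Between genotypes 0 of 19 passed in either population, and the median was 0.37 in AECII and -0.10 in AECI.

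The 19 partners of the programme hold the geminin family, E2F and RFX factors and Notch ligands, receptors and targets. They also hold Tfdp1, Foxa2, Noto and Trp63, the last of which stands in the basal list as well. Only 1 of the 19, the ligand gene Jag1, was called, higher in AECII in experimental lungs, against 1.28% of all genes. Jag1 read 11.26 and 10.93 in AECII experimental and 10.82 and 10.58 in AECII control arrays, against 9.24 and 9.73 in AECI experimental and 9.37 and 9.27 in AECI control arrays. All AECII arrays were higher, by 1.61 ± 0.28 (SE, limma adjusted p = 0.0455) in experimental and 1.38 ± 0.28 (SE, limma adjusted p = 0.0609) in control lungs. Gmnc, the coactivator upstream of Mcidas, was dim, between 1.61 and 3.32 on all arrays. The list's median was 0.11 in experimental and -0.15 in control lungs. Geminin (Gmnn), which binds these coactivators, was higher on both experimental arrays of each population, by 1.05 (limma adjusted p = 0.529) in AECII and 0.90 (limma adjusted p = 0.267) in AECI, without passing. Between genotypes 0 of 19 passed in either population, with medians of 0.13 in AECII and -0.05 in AECI.

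Markers of other cells moved with these results. The club cell list, 6 genes of the secretory airway cells, averaged 11.26 to 11.75 in AECII experimental and 10.50 to 10.58 in AECII control arrays, against 9.03 to 9.21 in AECI experimental and 8.43 to 8.44 in AECI control arrays. It had 5 of 6 genes called higher in AECII in experimental and 4 of 6 in control lungs, against 1.28% and 1.30% of all genes. Aldh1a1 (2.69, limma adjusted p = 0.0180), Sox2 (3.85, limma adjusted p = 0.0211), Cyp2f2 (1.89, limma adjusted p = 0.0259) and Scgb1a1 (2.95, limma adjusted p = 0.0322) had the smallest p in experimental lungs, of which Sox2 is the airway lineage factor. Scgb1a1, the club cell secretory protein, read 15.31 and 15.08 in AECII experimental and 14.55 and 14.58 in AECII control arrays, against 11.57 and 12.92 in AECI experimental and 11.18 and 11.39 in AECI control arrays. The club list, the axoneme list and Foxj1 thus shared the order of the 4 groups. The proliferation list, 7 genes, averaged 7.85 to 8.0 in AECII experimental against 7.30 to 7.33 in AECII control arrays, and 8.60 to 9.09 in AECI experimental against 7.70 to 7.71 in AECI control arrays. It was higher in experimental arrays of both populations and did not share the order of Foxj1 or Myb. The part of these lists in the regulators' differences was not tested.

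**Figure D5:**
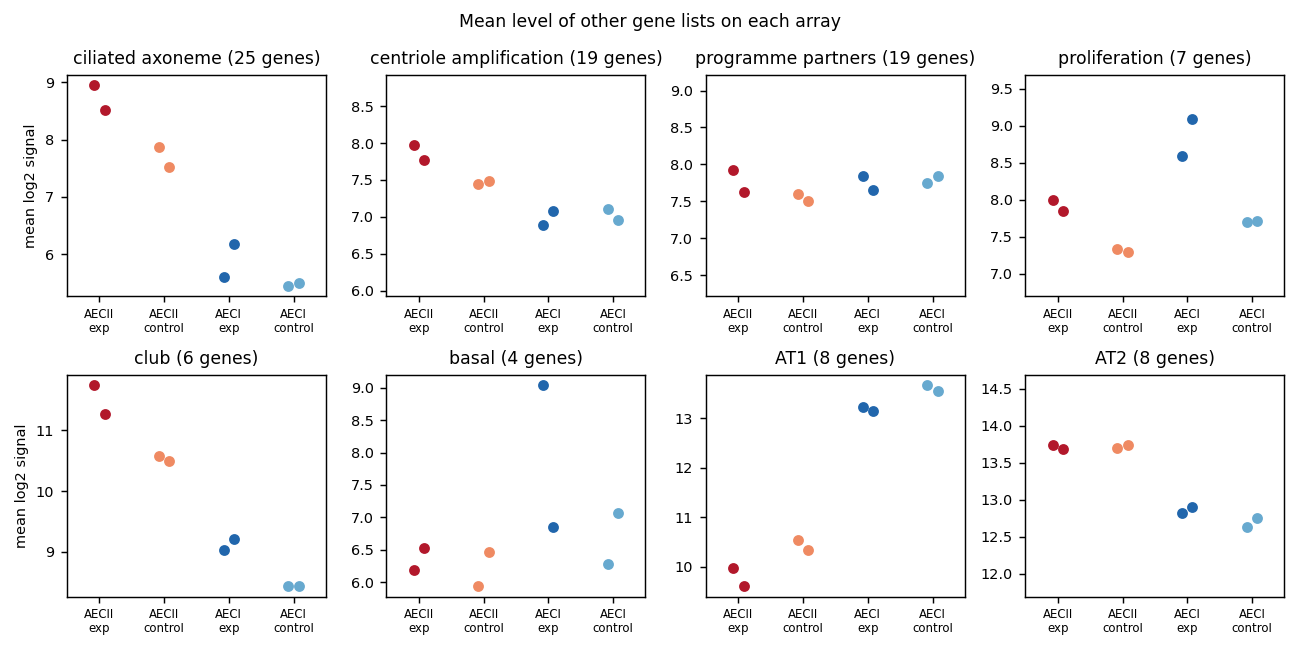
Mean log2 signal (vertical axis) of 8 other gene lists on each array, in the 4 groups with 2 points each, on vertical scales that differ between panels. The axoneme and club lists were highest in AECII experimental and lowest in AECI control arrays, the AT1 list was higher in AECI, and 1 AECI experimental array stood apart for the basal list.

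The basal list of 4 genes was higher on AECI experimental replicate 1, at 9.04, than on the other arrays, which read 5.93 to 7.07, and Krt5 read 8.32 there against 2.53 to 3.88 elsewhere. No regulator shared that pattern. Haematopoietic progenitor markers, a list given because Myb also serves those cells, averaged 3.90 to 4.86 in AECII experimental and 3.86 to 3.94 in AECII control arrays, against 3.78 to 4.57 in AECI experimental and 3.90 to 3.91 in AECI control arrays, with 0 of 5 called in any comparison. The immune list (6.90 to 7.72 in AECII experimental, 7.57 to 7.78 in AECII control, 7.14 to 7.30 in AECI experimental and 7.02 to 7.39 in AECI control arrays) and the neuroendocrine list (3.18 to 3.53, 3.44 to 3.67, 2.87 to 3.29 and 3.80 to 4.30 in the same order) likewise had 0 genes called. The mesenchymal list was lower in AECII, at 9.47 to 9.52 in AECII experimental and 9.09 to 9.32 in AECII control, against 11.11 to 11.24 in AECI experimental and 10.15 to 10.92 in AECI control arrays. In experimental lungs 3 of 5 genes were called lower (Col1a1, Col3a1 and Sparc), against 1.27% of all genes. In control lungs 2 of 5 were called lower (Col3a1 and Sparc), against 1.53% of all genes.

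Foxj1 was also used to rank other genes by the likeness of their profile, as Pearson's r over the 8 arrays among 2865 genes with an SD of at least 1. The 5 closest, with predicted genes and clones passed over, were Lrrc6 (0.993), Lrrc23 (0.991), Dpp4 (0.991), Oscp1 (0.990) and Cfap45 (0.988). Of these, Lrrc6 acts in dynein arm assembly and Lrrc23 and Cfap45 are axoneme proteins, while Dpp4 is a surface peptidase. Lrrc6 read 6.49 and 6.10 in AECII experimental and 5.60 and 5.45 in AECII control arrays, against 3.01 and 3.73 in AECI experimental and 2.09 and 2.01 in AECI control arrays. It kept the order of the groups seen for Foxj1. With predicted genes and clones again passed over, the regulators Ccno (0.907), Myb (0.896), Cdc20b (0.798) and Foxn4 (0.696) ranked 188, 210, 389 and 527. The other regulators varied too little to be ranked. The points share the 2 populations, so each r also holds the step between AECII and AECI, and no p is given.

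Ccno, Mcidas and Cdc20b are direct neighbours on mouse chromosome 13. Their flanking genes were read to see whether the difference between populations was shared along the locus. Dhx29, a helicase gene on the Ccno side, read 8.02 and 7.86 in AECII experimental and 8.03 and 8.0 in AECII control arrays, against 6.72 and 6.76 in AECI experimental and 6.32 and 6.73 in AECI control arrays. Every AECII array was higher, by 1.20 ± 0.25 (SE, limma adjusted p = 0.0634) in experimental and 1.49 ± 0.25 (SE, limma adjusted p = 0.0373) in control lungs, where it passed. Mtrex beyond it differed by 0.42 (limma adjusted p = 0.358) and 0.01 (limma adjusted p = 0.989). On the Cdc20b side Gpx8 differed by 0.26 (limma adjusted p = 0.559) and -0.11 (limma adjusted p = 0.888), and Gzma by -0.93 (limma adjusted p = 0.577) and 2.14 (limma adjusted p = 0.284). No gene of the locus was called in both genotypes, since Dhx29 passed in control lungs and Ccno and Cdc20b passed in experimental lungs.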

How the data were processed

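Total RNA of the sorted cells was amplified, and 2 µg of cDNA per sample was labelled with Cy5, per the labels. The authors deposited log2 signals, already normalized between arrays. Their processing notes list limma, with no version, and nothing on background correction is given in the sources used here. Log base 2 was read from the range of 1.34 to 16.0, the top matching a 16-bit scanner, and since sorted values differed by at most 0.0056 from array to array, no second normalization was made. Without detection flags, a dim spot says nothing of its background. Precision is limited by having 2 arrays a group.

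A single gene symbol was known for 43941 of 62976 spots (69.8%). Symbols were updated through RefSeq for GRCm38.p6 (33704 spots by accession, 463 by synonym), and the brightest probe stood for each gene. limma 3.58.1 (R 4.3.3) was fitted with 4 group means over 8 arrays and eBayes without trend, with 4 residual degrees of freedom, and p-values were adjusted by Benjamini-Hochberg over all 24306 genes (all 43941 probes in the probe test). The fit was checked on simulated data. Figures were drawn with matplotlib 3.10.9.

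The regulators, the gene lists and the tests were chosen with earlier results of these data known. The naming rule took all 10 regulators and the list genes past the threshold (the 4 of smallest p where more than 4 or none passed). Further genes were the 3 in gene order on each side of Ccno, Mcidas and Cdc20b where measured. The rule also took the 5 genes most like Foxj1, with predicted genes and clones passed over, and Xist, Eif2s3y and Fgfr2. The text prints a selection of the list genes it took and gives the remaining lists by counts and levels. Gmnc, Gpx8 and Gzma lie outside the rule (microRNA genes fill the places beside Cdc20b) and were chosen after their values were seen, as were the promoters shown. Alternatives were array centring, the mean of all probes, a filter on dim genes, a mean-variance trend, the compared groups only, a replicate block, a covariate for the Xist pattern and each array left out; testing every probe, leaving out both arrays of low Xist and crossing replicate numbers were added after seeing the data. The published text given as context describes another experiment and was not used for methods.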

Additional observations from a re-analysis of the deposited data

Results flagged for a closer look

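Rfx3 was singled out because its arrays moved in opposite directions in the 2 populations on its brightest probe. Both experimental AECII arrays (11.68 and 11.52) lay above both control AECII arrays (11.28 and 11.48), whereas both experimental AECI arrays (10.37 and 10.40) lay below both control AECI arrays (10.77 and 10.82). The difference of experimental from control was 0.23 in AECII and -0.42 in AECI, and these differed by 0.64 ± 0.32 (SE, 95% interval -0.13 to 1.41). The test of that difference did not pass (limma adjusted p = 0.615). Experimental arrays lay above control arrays in AECII for 27.3% of all genes, and below them in AECI for 18.6%. The share of genes with both was not counted, so how unusual this pattern is cannot be said. The second Rfx3 probe gave 0.27 in AECII and -0.64 in AECI, also with arrays apart in opposite directions, whereas the third gave -0.18 and -0.27 with overlapping arrays and a difference of 0.10 (limma adjusted p = 0.987).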

How the results depend on the processing

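With 2 arrays a group, the calls of the regulators rested on few degrees of freedom. Some members were dim. On AECI arrays Cdc20b read 1.92 to 4.34 and Myb 1.60 to 4.91, around the lower quartile (3.07) and below the median (5.18) of all spots. Members called higher in AECII numbered 3 in experimental and 1 in control lungs. They became 5 and 3 with the mean of all probes, 5 and 2 with dim genes filtered out and 5 and 4 with a mean-variance trend. Calls over all genes also rose with the trend, and in experimental lungs with dim genes filtered out, as given below. The rise there was thus not particular to the members. The share of all genes called with the mean of all probes is not given here. No member was called with the compared groups only (0 and 0). Without both arrays of low Xist each control group held 1 array, so the spread came from the experimental groups alone. In experimental lungs that setting was therefore the same fit as the compared groups only and not a separate check. It cannot show whether the Xist pattern mattered for the calls there. Leaving out 1 array gave 0 to 4 members in experimental and 0 to 2 in control lungs, and 0 to 0 in the other comparisons. A group left with 1 array was assumed to vary like the others.

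Over all genes the calls between populations, 618 in experimental and 689 in control lungs, became 1231 in experimental lungs with dim genes filtered out, 2685 and 1920 with the trend, 301 and 371 with the Xist pattern as covariate, and 0 and 0 with the compared groups only or without both arrays of low Xist. Leaving out 1 array gave 0 to 586 and 0 to 463. Between genotypes the trend gave 61 calls in AECII and 74 in AECI, and the 1 call in AECI was 0 under the covariate, the compared groups only, the removal of both arrays of low Xist and each array left out (0 to 0). The compared groups only could not give the difference of genotype effects. In experimental lungs the compared groups only and the removal of both arrays of low Xist were the same fit, so they are not separate checks there. The cause of the changes in calls was not tested.

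With the replicate number as a block, members called were 2 in experimental and 1 in control lungs, and genes called were 276 and 311. Ccno in experimental lungs lost its call (limma adjusted p = 0.0788). Same-numbered arrays deviated together with r of -0.10 to 0.04, which shows no pairing by number but cannot exclude one. The block changed no other call of a member. Whether AECII and AECI arrays came from the same lungs is not given in the sources used here. Crossing the numbers in AECII control, a pairing chosen after seeing the data, puts the 2 arrays of low Xist in the same block. With it 215 genes were called in control lungs.

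Directions of members that had not passed the test turned in some settings. With the mean of all probes, Trp73 was 1.46 and 0.23 between populations in experimental and control lungs and 1.10 and -0.14 between genotypes in AECII and AECI, Mcidas was -0.12 between populations in control lungs and -0.15 between genotypes in AECI, and Myb was -0.063 there. With the Xist pattern as covariate, Trp73 was 0.031 and Tub 0.13 between genotypes in AECII, and Tub was 0.54 in AECI. Without both arrays of low Xist, the population difference in control lungs was -0.033 for Mcidas, 0.17 for Trp73 and 0.29 for Tub, the genotype difference was -0.15 for Rfx2 and -0.093 for Foxn4 in AECII and 1.06 for Tub in AECI, and the difference of genotype effects was -0.54 for Myb.

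With 1 array left out, values that turned ranged between populations in control lungs from -0.71 to 0.78 for Rfx2, -0.38 to 0.24 for Trp73 and -1.84 to 0.35 for Tub. Between genotypes in AECII they ranged from -0.13 to 0.13 for Ccno, -0.15 to 1.33 for Rfx2, -0.093 to 1.40 for Foxn4 and -0.90 to 0.026 for Tub. Between genotypes in AECI they ranged from -0.63 to 0.27 for Ccno, -0.42 to 0.98 for Foxn4, -1.15 to 2.16 for Myb, -0.16 to 0.72 for Trp73 and -1.12 to 1.06 for Tub, and the difference of genotype effects from -0.81 to 2.50 for Myb. Foxj1, Cdc20b and Rfx3 kept their directions in all these settings.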
